A study of Mus musculus with 703 samples.

Results

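The mouse gastrocnemius RNA-seq table was searched for 9 genes of B cells and antibody-making cells: Igkc, Ighm, Ighd, Igha, Jchain, Cd79a, Cd79b, Cr2 and Cxcl13. All 9 had a row in the table. They were selected on their measured differences between diets or with metformin in these same animals, so those contrasts are given below as description, with no test. Contrasts by sex and by strain, and the diet contrast within metformin-treated animals, did not enter that choice and were tested.

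The libraries, 544 and 159 in separate ranges of sequencing identifiers, came from gastrocnemius muscle of 20 CC-RIX strains, 1 library per labelled animal. A CC-RIX animal is the F1 of a cross between inbred Collaborative Cross lines, so animals of 1 strain and sex share a genotype while strains differ widely. Animals ate a 10% fat or a 44% fat diet from 6 weeks of age, and the labels give both diets as with fiber. They either received no drug or drank water with metformin at 5 mg/mL from 7 months of age. Untreated animals were 236 females and 233 males, split almost evenly between the diets. Metformin-treated animals on the 10% fat diet were 57 females and 59 males, and on the 44% fat diet 59 females and 59 males. Tissue was collected at 6 or 12 months, and metformin was given only in the older cohort. The labels used here do not give each animal's age, so metformin and age cannot be told apart.

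B cells carry an antibody on their surface as the B-cell receptor, and plasma cells, which descend from B cells, secrete antibody. Ighm, Ighd and Igha encode the constant regions of the mu, delta and alpha heavy chains, and Igkc encodes that of the kappa light chain. Mature B cells that have not met antigen carry IgM and IgD together. Cd79a and Cd79b form the signalling pair of the B-cell receptor, and Cr2 is the complement receptor CD21 of mature B cells and follicular dendritic cells. Jchain links the units of secreted IgM and IgA. Cxcl13 is a chemokine, made largely by stromal cells, that draws B cells into follicles through the receptor Cxcr5. Skeletal muscle normally holds few lymphocytes.

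Levels are given as CPM, each count scaled to the total of its library. Totals were such that 1 CPM stood for 27.4 to 96.1 counts, with a median of 47.9. The lower (544) and upper (159) identifier range was used as a covariate, and the labels do not say what the ranges stand for. Treated animals were 144 of the lower and 90 of the upper range. No library of (CC009/UncJ x CC013/GeniUncJ)F1 was in the lower one. By sex-linked expression 15 libraries went against their sex label, and 4 had a profile closest to another strain. The muscle label held in every library: 10 fast-fibre genes, led by Ttn, Myh4, Acta1, Ckm and Tnnt3, summed to between 85004 and 226565 CPM. In bulk muscle, fewer cells of a type and less RNA per cell cannot be told apart.

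In GRCm38, the build of the submitters' processing notes, the heavy-chain genes lay together on the minus strand of chromosome 12, with Ighm (ENSMUSG00000076617) at chr12:113418558-113422730, Ighd (ENSMUSG00000104213) at chr12:113406604-113416324 and Igha (ENSMUSG00000095079) at chr12:113254830-113260236. Igkc (ENSMUSG00000076609) lay at chr6:70726435-70726966, Cd79a (ENSMUSG00000003379) at chr7:24897381-24902197 and Cxcl13 (ENSMUSG00000023078) at chr5:95956951-95961068, all on the plus strand. Jchain (ENSMUSG00000067149) at chr5:88519809-88527891, Cd79b (ENSMUSG00000040592) at chr11:106311341-106314762 and Cr2 (ENSMUSG00000026616) at chr1:195136811-195176716 lay on the minus strand. Values are for whole genes. Igkc overlapped the lincRNA Gm30211 on the same strand, so reads of the pair cannot be told apart, and heavy-chain constant genes could share reads, which leaves their levels uncertain to that extent.

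Promoters were matched in RefSeq (GRCm38.p6) for 4 of the 9 members, and are shown because Cd79a and Cr2 were high in the same animals while Jchain and Cxcl13 were spread more widely. Each run holds the bases before the RefSeq start site, 5′ to 3′ in the gene's direction, with motif matches in capitals. For Cd79a it stops where the deposited annotation starts the gene.
Cd79a: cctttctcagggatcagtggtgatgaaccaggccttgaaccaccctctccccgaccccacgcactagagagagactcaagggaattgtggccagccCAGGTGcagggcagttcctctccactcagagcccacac
Cr2: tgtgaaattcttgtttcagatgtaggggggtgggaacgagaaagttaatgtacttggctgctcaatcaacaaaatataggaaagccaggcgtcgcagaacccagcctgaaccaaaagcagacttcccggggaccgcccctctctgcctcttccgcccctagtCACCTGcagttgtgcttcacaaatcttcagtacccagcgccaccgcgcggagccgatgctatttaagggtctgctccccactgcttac
Jchain: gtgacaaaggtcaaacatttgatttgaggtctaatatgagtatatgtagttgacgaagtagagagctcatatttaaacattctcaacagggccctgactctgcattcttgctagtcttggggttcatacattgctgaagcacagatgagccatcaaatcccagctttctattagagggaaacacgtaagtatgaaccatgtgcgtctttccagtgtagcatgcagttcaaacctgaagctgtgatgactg
Cxcl13: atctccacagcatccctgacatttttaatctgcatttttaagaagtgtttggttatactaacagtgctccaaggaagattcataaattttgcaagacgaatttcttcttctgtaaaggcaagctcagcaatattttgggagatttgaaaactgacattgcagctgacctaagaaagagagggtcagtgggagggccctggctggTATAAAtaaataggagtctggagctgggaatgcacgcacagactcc
These were chr7:24897247-24897380 on the plus strand for Cd79a, chr1:195176720-195176969 on the minus strand for Cr2, chr5:88527898-88528147 on the minus strand for Jchain and chr5:95956689-95956938 on the plus strand for Cxcl13. The 250 bases before the start site were searched on both strands for an octamer (ATGCAAAT), an E-box (CAGGTG), an EBF half-palindrome (CCCNNGGG), an ETS site (AGGAAGTG), an NF-kB site (GGGNNTTCC) and a TATA box (TATAAA). The Cr2 window held the E-box on its other strand, starting 88 bases before the start site, and the Cd79a window held an E-box and, in the part not printed, an ETS match. The Cxcl13 window held a TATA box starting 46 bases before the start site, and the Jchain window held no match. No matches overlapped. Among 32851 promoter windows of the same length, 17.2% held the E-box letters, 12.4% the TATA box, 11.8% the EBF letters, 4.98% the NF-kB letters and 3.14% the ETS letters, and the octamer was the rarest. These matches are descriptions of letters only.

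The 9 genes differed in how many animals carried them. Ighm had counts in all animals and reached 1 CPM in each of them, 10 CPM in 607 and 100 CPM in 157. Igkc had counts in 655 animals and reached 1 CPM in 162, Jchain in 685 and 87, Igha in 589 and 65, and Cxcl13 in 691 and 62. Ighd, Cd79a, Cd79b and Cr2 had at least 1 count in 568, 401, 510 and 497 animals, yet each reached 1 CPM in 20 (2.84%). No member other than Ighm reached 100 CPM in any animal.

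The summed signal of each gene was concentrated to different degrees. The 7 highest animals held 49.1% of all Ighd CPM, 47.7% of Cd79a, 47.5% of Cr2 and 40.9% of Cd79b, against 6.16% of Ighm. They held 37.5% of Igha, 30.2% of Cxcl13, 29.3% of Igkc and 22.5% of Jchain.

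**Figure D1:**
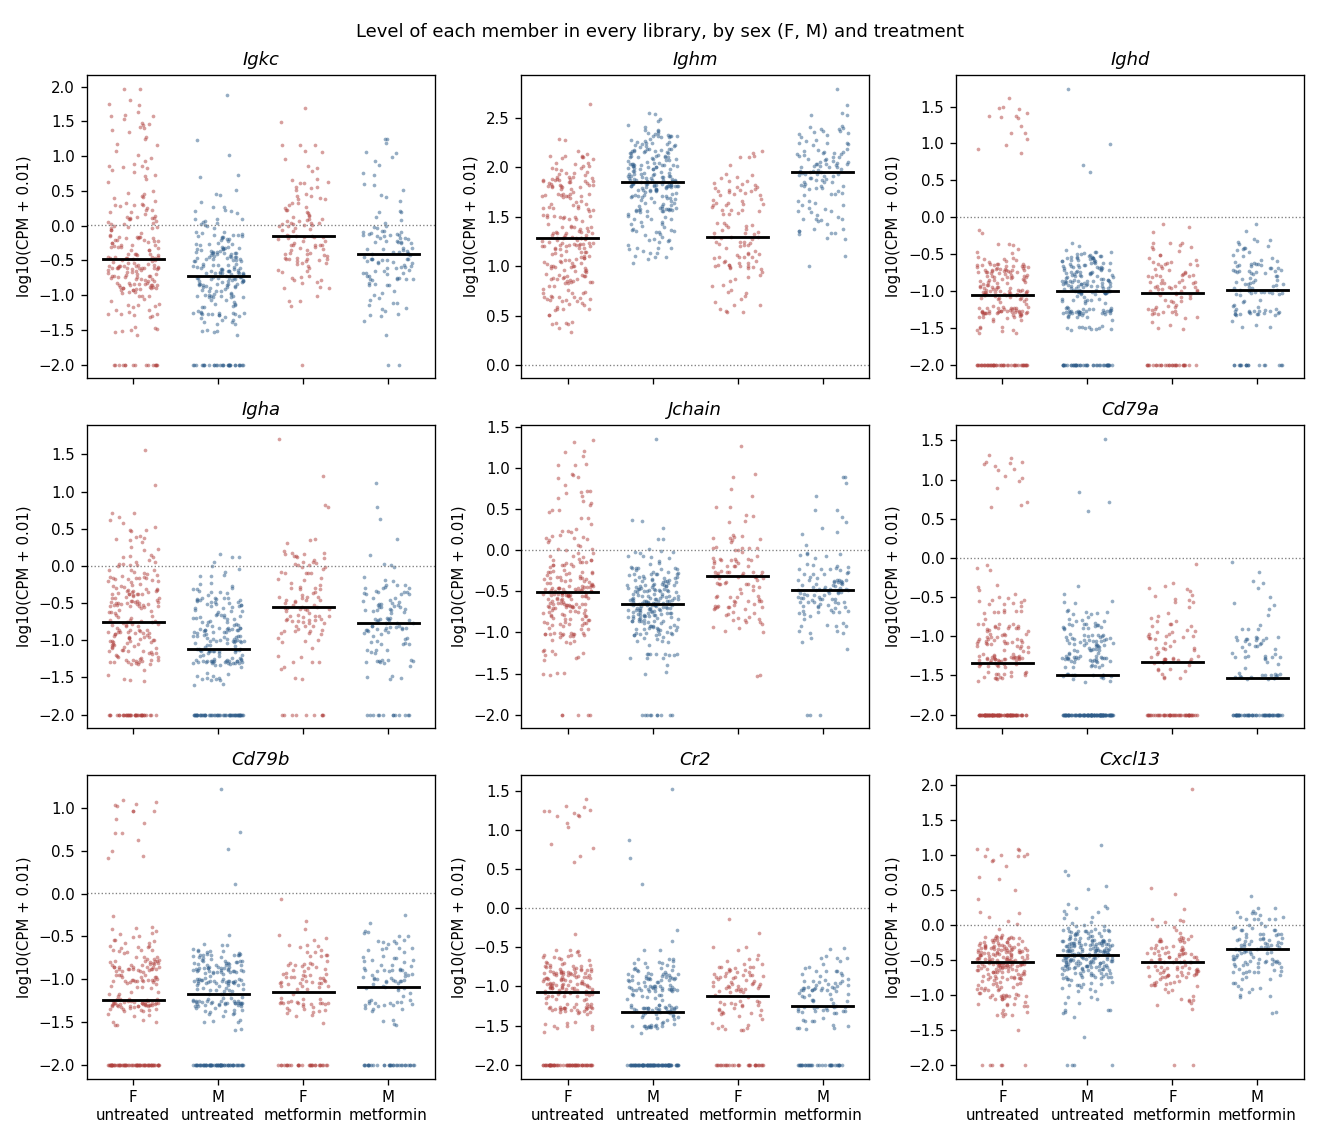
Level of each member in all libraries, as log10 of CPM plus 0.01, for females (F) and males (M) without and with metformin, with a black bar at each median and a dotted line at 1 CPM. Ighd, Cd79a, Cd79b and Cr2 each show 20 untreated animals above a gap, while Ighm is at or above 2.13 CPM everywhere and higher in males.

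Ighd, Cd79a, Cd79b and Cr2 reached 1 CPM in the same 20 animals. For Cd79a the lowest of the 20 had 3.92 CPM and the next animal below had 0.873 CPM. For Ighd these values were 4.15 and 0.810 CPM, for Cr2 2.04 and 0.722 CPM, and for Cd79b 1.29 and 0.862 CPM. In untreated females Cd79a ran from 0 through a median of 0.0363 to 20.3 CPM, in untreated males from 0 through 0.0218 to 33.3, in treated females from 0 through 0.0372 to 0.837 and in treated males from 0 through 0.0193 to 0.873 CPM. The medians lay close together and the groups overlapped below the gap. Each gene thus split the animals at a gap, widest for Ighd and narrowest for Cd79b. Among the 20, Cd79a ran up to 33.3 CPM, Cr2 up to 33.5, Ighd up to 55.5 and Cd79b up to 16.9. The highest animal was the same for all 4 genes, an untreated male of (CC011/UncJ x CC005/TauUncJ)F1 on the 44% fat diet.

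The other members overlapped with these 20 animals without being restricted to them. Igkc was at or above 1 CPM in all 20 (12.3% of the 162 animals that reached it) and ran from 5.01 to 93.1 CPM among them. Cxcl13 was at or above 1 CPM in all 20 (32.3% of its 62), from 2.32 to 14.1 CPM, and Jchain in 18 (20.7% of its 87), from 0.785 to 22.5 CPM. Igha reached 1 CPM in only 6 of the 20 (9.23% of its 65), with a highest value of 3.29 CPM. Ighm ran from 19.5 to 196 CPM among the 20, inside its range in the other animals.

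The 4 receptor genes also followed each other among the 20 animals. Pearson's r of log2(CPM + 0.1) across the 20 was 0.96 for Cd79a with Cd79b, 0.93 for Cd79a with Cr2 and 0.91 for Cd79a with Ighd. Across the 683 other animals, after removing strain, sex, diet, treatment and identifier range, these values were 0.41, 0.34 and 0.46. Igkc with Jchain had 0.95 across the 20 and 0.77 across the 683, and Igkc with Igha had 0.34 and 0.67. Ighm had r between 0.01 and 0.20 with the other members across the 683. These are descriptions across libraries, and genes of 1 library share its depth and composition.

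**Figure D2:**
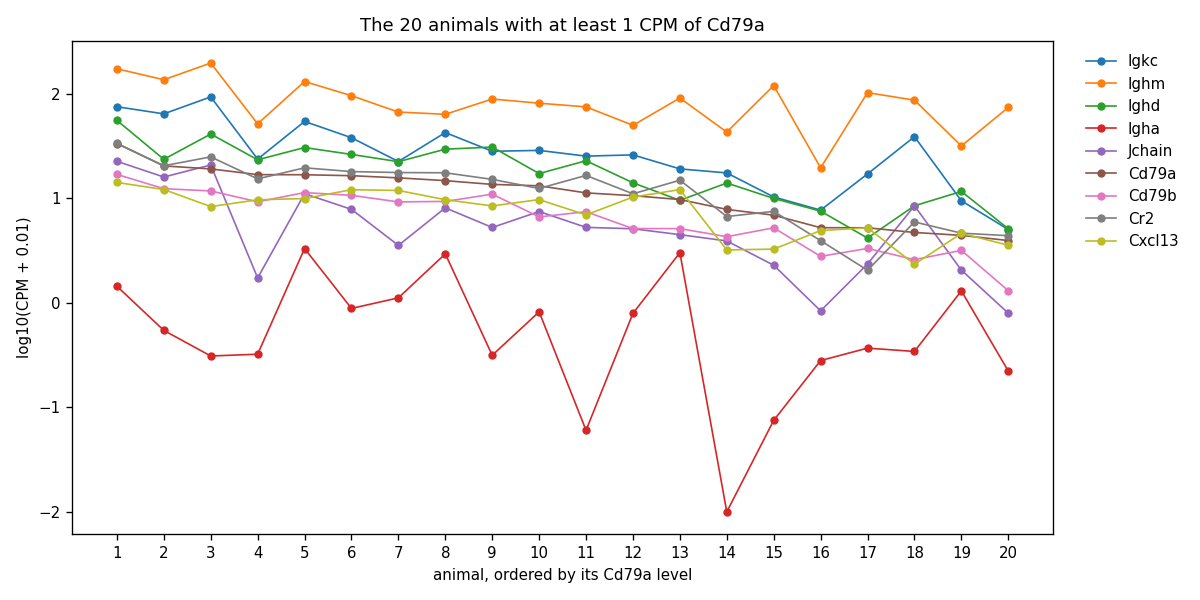
Level of the 9 members, as log10 of CPM plus 0.01, in the 20 animals with at least 1 CPM of Cd79a, ordered by Cd79a and joined by lines for reading only. Ighd, Cd79b and Cr2 fall with Cd79a from left to right, while Igha ranges from 0 to 3.29 CPM without that order.

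The 20 animals were unevenly spread over the groups. All 20 were untreated and in the lower identifier range, 16 were female and 4 male, and 11 ate the 10% fat and 9 the 44% fat diet. Their identifiers ran from 12188 to 12993, across the lower range of 12175 to 12997, and 1 CPM stood for 37.2 to 59.3 counts in them. In all, 2 were among the 15 libraries against their sex label, none was closest to another strain and 1 was among the 12 libraries with a liver-gene sum over 20 times the median.

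They belonged to 8 of the 20 strains. (CC051/TauUncJ x CC019/TauUncJ)F1 held 5 of its 24 untreated animals, (CC011/UncJ x CC027/GeniUncJ)F1 held 4 of 24 and (CC024/GeniUncJ x CC002/UncJ)F1 held 3 of 24. (CC001/UncJ x CC042/GeniUncJ)F1 and (CC030/GeniUncJ x CC002/UncJ)F1 held 2 of 24 each, and (CC011/UncJ x CC005/TauUncJ)F1 held 2 of 26. (CC043/GeniUncJ x CC011/UncJ)F1 and (CC019/TauUncJ x CC042/GeniUncJ)F1 held 1 of 24 each. In no strain did most untreated animals carry Cd79a at 1 CPM.

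**Figure D3:**
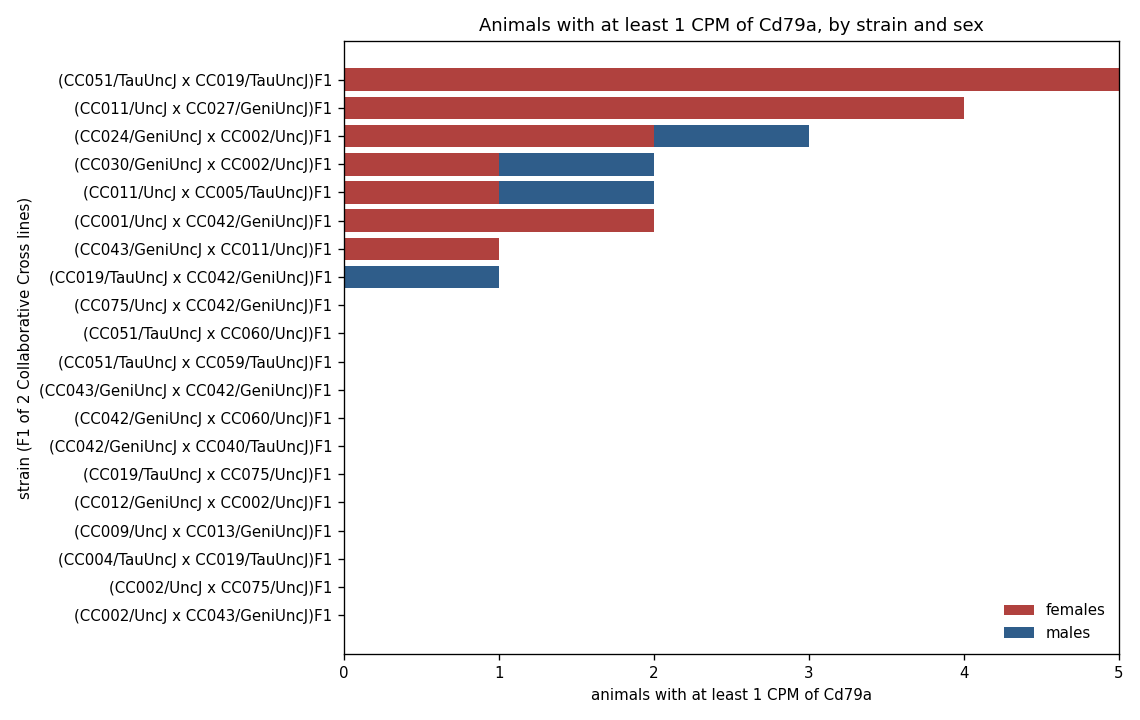
Number of animals with at least 1 CPM of Cd79a in each of the 20 strains, stacked by labelled sex. The bars reach 5, 4 and 3 animals in the 3 leading strains, stand at 1 or 2 in 5 others, and are empty in 12.

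Among untreated animals of the lower range, 16 of 201 females (7.96%) and 4 of 199 males (2.01%) had at least 1 CPM of Cd79a, a difference of 5.95 percentage points. A two-sided permutation test that shuffled sex within strain and diet 100000 times gave p = 0.00503. It was chosen after these values were seen. Without the libraries against their sex or strain label the counts were 15 of 195 and 3 of 192, a difference of 6.13 points with a permutation p of 0.00576.

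Of the metformin-treated animals 0 reached 1 CPM of Cd79a, which allows a share of up to 1.28%. Within the lower range this was 0 of 144 treated animals, which allows up to 2.08%, against 20 of 400 untreated ones (5.00%). Within the 8 strains alone it was 0 of 73 treated animals of the lower range (up to 4.11%) against 20 of 178 untreated (11.2%). Those strains were picked because they held the 20, so this limit could only raise the untreated share. The upper range held none among 69 untreated animals either (up to 4.35%). These limits cover counting error only. As metformin was among the contrasts that picked Cd79a, no test is given, and age cannot be told apart from it.

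Marker lists of other cell types were compared with the 20 animals. The summed level of 14 T-cell genes (of 22 listed), Cd28, Tcf7, Il7r and Lck among them, ran from 33.4 to 286 CPM in the 20. It reached at most 26.9 CPM elsewhere, so the 20 highest libraries for this sum were these 20. Cd28, the highest of these genes on average, did not follow this. It shared 3 of its 20 highest libraries, with 3.09 CPM in the lowest of the 20 and up to 25.2 CPM elsewhere. Cd3e, of the T-cell receptor complex, ran from 0.997 CPM in the lowest of the 20, against a highest value of 0.696 CPM elsewhere. Of 20 B-cell genes beside the members, led by Cd74, Ebf1, Lyn, Syk and Blnk, Fcer2a, Ltb, H2-Ob and Cxcr5 also had their 20 highest libraries in these 20. These 4 genes and Cd3e are named because of their values. Fcer2a, the low-affinity IgE receptor of mature B cells, was at or above 1.41 CPM in the 20 and at most 0.427 CPM elsewhere. Cxcr5, the Cxcl13 receptor, was at or above 0.806 CPM in the 20 and at most 0.502 CPM elsewhere. The B-cell markers Ms4a1 and Pax5 were not analysed here.

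The other lists shared fewer of these animals. The same count over all genes of the table is not given, so the counts below are descriptions without a background. The 20 highest libraries shared 15 animals with the 20 for the summed B-cell list, 13 for B-cell receptor signalling (22 of 23 genes in the table), 13 for mitosis (7 of 8, led by Mki67, Top2a, Ccnb2, Birc5 and Cdk1) and 12 for follicular dendritic and lymphoid stromal genes (12 of 15). They shared 7 for the natural killer gene Klrb1c, 6 for adipocyte genes (8 of 8), 5 for skin and gut lining genes (4 of 7), 3 for macrophage (10 of 10), 2 for liver (9 of 9) and 1 for blood (6 of 7). Of single adipocyte genes, Adipoq shared 10, Cidec and Cfd 9, Plin1, Retn and Adrb3 8, Car3 5 and Lep 1. The 20 highest libraries shared none for the sums of plasma cell (14 of 14), germinal centre (6 of 8), high endothelial venule (2 of 6) or fast muscle genes. Xbp1 (mean 56.6 CPM) and Txndc5 (30.8) led the plasma cell sum, Bcl6 (58.6) the germinal centre sum and St3gal6 (125) the venule sum. Each of these genes shared none. Irf4 and Slamf7 shared 16 and Mzb1 15, against 0 to 9 for the other plasma cell genes. Gcsam shared 10, against 0 to 8 for the other germinal centre genes, and Chst2 shared 10. The fast muscle sum in the 20 ran from 85004 CPM, the lowest of all libraries, to 202644 CPM. As the table keeps only genes with a count in at least 50.07% of libraries, no list gene in it could be at 0 in most. The part of these other cells in the levels of the members was not tested.

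Ighm differed most regularly between the sexes. Its median over all animals was 48.4 CPM, against 0.318 CPM for Igkc and 0.0255 CPM for Cd79a. Across the 683 animals outside the 20, its r with the other members was only 0.01 to 0.20. Whether the Ighm level reflects B cells was not tested. In untreated females Ighm ran from 2.13 to 437 CPM with a median of 19.3, and in untreated males from 10.8 to 353 CPM with a median of 71.4. In metformin-treated females it ran from 3.44 to 146 CPM with a median of 19.9, and in treated males from 9.97 to 629 CPM, with a median of 74.1 on the 44% fat diet and a higher one on the 10% fat diet. At or above 100 CPM were 35 of 59 treated males on the 10% fat and 19 of 59 on the 44% fat diet, against 2 of 57 and 4 of 59 treated females. The ranges overlapped, but the male mean of log2(CPM + 0.1) was higher in 20 of 20 strains. Ighm was 1.61 ± 0.09 (SE) higher in males on the log2 scale in untreated animals (edgeR quasi-likelihood test, adjusted p = 3.6e-51) and 1.99 ± 0.12 higher in treated ones (adjusted p = 5.8e-40), a 3.05-fold and a 3.98-fold difference. These fits held strain, sex, diet and identifier range, and p-values were adjusted over all genes tested.

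The calls for Ighm stand against a background of many sex differences. Of 16384 genes tested in untreated animals, 65.2% were called between the sexes, 29.5% higher in males and 35.7% higher in females. Of 16418 genes in treated animals 51% were called, 23.2% higher in males and 27.8% higher in females. Sex took 31.7% of the variance of log2(CPM + 0.1) for Ighm, against 1.62% for the median gene, and Ighm ranked 249th of all genes in this. Within the upper range the male-female difference was 1.80 ± 0.17 in untreated and 2.14 ± 0.19 in treated animals, and within the lower range 1.55 ± 0.10 and 1.86 ± 0.15.

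**Figure D4:**
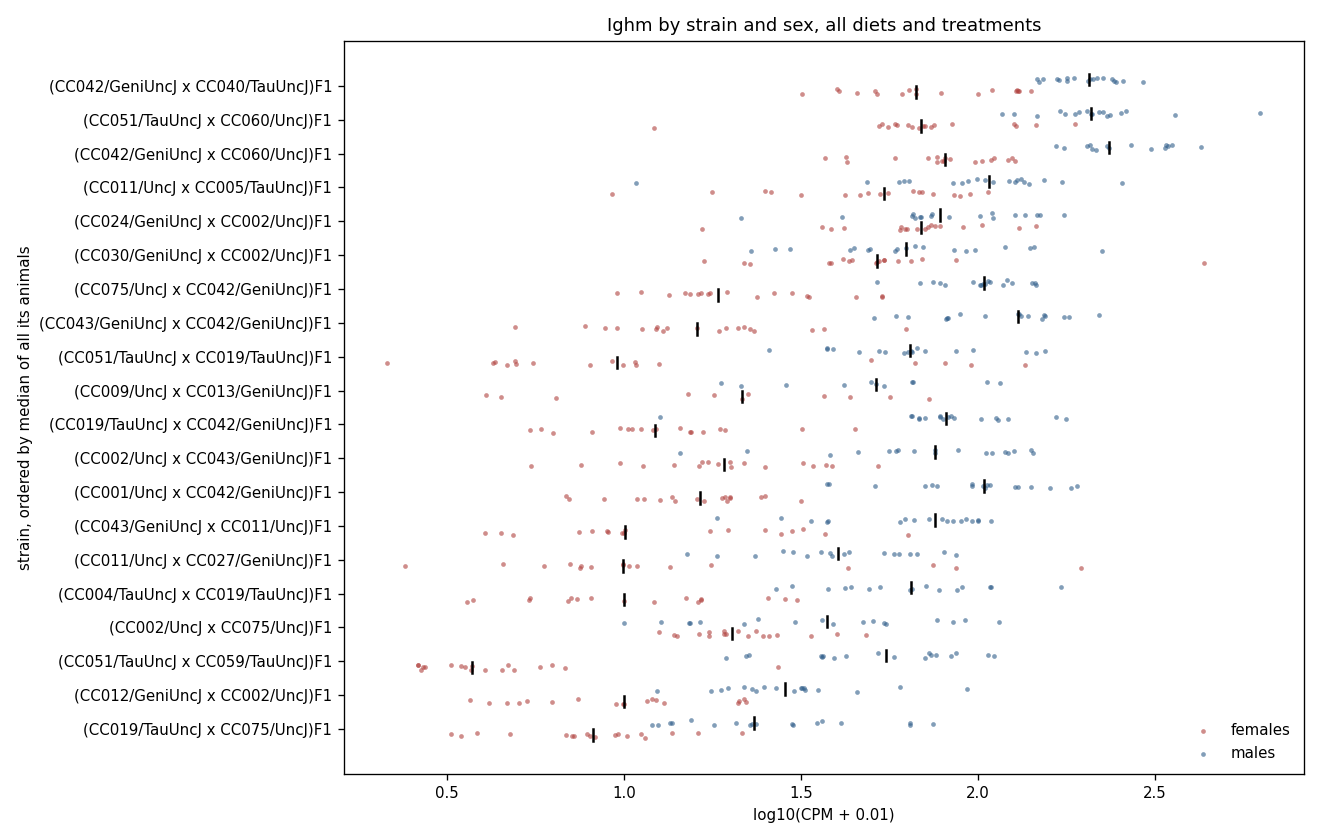
Ighm level as log10 of CPM plus 0.01 in each animal, by strain and labelled sex, with a black tick at the median of each sex and strains ordered by their median. The male tick lies to the right of the female tick in all 20 strains, and strain medians run from 13.6 to 144 CPM.

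The size of the sex difference in Ighm varied by strain. The male median was 14.9 times the female median of 3.70 CPM in (CC051/TauUncJ x CC059/TauUncJ)F1. In (CC024/GeniUncJ x CC002/UncJ)F1 the medians were 69.1 CPM in females and 78.5 CPM in males. In 3 strains the sexes did not overlap: (CC042/GeniUncJ x CC040/TauUncJ)F1, with females up to 141 and males from 147 CPM, (CC042/GeniUncJ x CC060/UncJ)F1, with 127 and 166 CPM, and (CC001/UncJ x CC042/GeniUncJ)F1, with 31.6 and 37.4 CPM. Whether the sex difference itself differed between strains was not tested.

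Strain medians of Ighm, over all animals, were highest in (CC042/GeniUncJ x CC040/TauUncJ)F1 at 144 CPM, (CC051/TauUncJ x CC060/UncJ)F1 at 137 and (CC042/GeniUncJ x CC060/UncJ)F1 at 125. They were lowest in (CC019/TauUncJ x CC075/UncJ)F1 at 13.6 CPM, (CC012/GeniUncJ x CC002/UncJ)F1 at 20.3 and (CC051/TauUncJ x CC059/TauUncJ)F1 at 20.7. The extremes differed 10.6-fold, and strain took 33.2% of the variance against 11.2% for the median gene. Each of the 19 pairs of neighbouring strains in this order overlapped in their middle 50% of animals. The other genes most like Ighm were Dupd1, Foxo6os and Rmi2, with r of 0.48, 0.46 and 0.45 over all animals.

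Igkc, Igha and Jchain were higher in females. At or above 1 CPM of Igkc were 68 of 236 untreated females (28.8%), 23 of 233 untreated males (9.87%), 49 treated females (42.2%) and 22 treated males (18.6%). The medians of these groups were 0.323, 0.179, 0.699 and 0.375 CPM, and the highest values were 93.6, 74.9, 48.7 and 17.9 CPM, with the lowest at 0 in each group, so that the groups overlapped. In untreated animals Igkc was 2.00 ± 0.25 lower in males on the log2 scale (adjusted p = 9.8e-14), Igha 1.59 ± 0.19 lower (adjusted p = 2.2e-15) and Jchain 1.25 ± 0.17 lower (adjusted p = 1.1e-11), by the same edgeR test. The female mean of log2(CPM + 0.1) was higher in 17 of 20 strains for Igkc and for Igha, and in 15 for Jchain.

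Igha and Jchain showed the same order of shares. Igha reached 1 CPM in 31 of 236 untreated females, 4 of 233 untreated males, 23 treated females (19.8%) and 7 treated males (5.93%). Jchain reached it in 44, 7, 24 and 12 animals of these groups. The Igha medians were 0.164, 0.0652, 0.267 and 0.160 CPM and its highest values 35.9, 1.43, 51.4 and 13.2 CPM. The Jchain medians were 0.299, 0.212, 0.467 and 0.317 CPM and its highest values were at most 22.5, in an untreated male, and at least 7.79 CPM, in a treated male. In treated animals Igkc was 0.72 ± 0.27 lower in males (adjusted p = 0.019) and Igha 0.81 ± 0.28 lower (adjusted p = 0.0098), while for Jchain the difference was -0.37 ± 0.21 (adjusted p = 0.14), all by edgeR's quasi-likelihood test. Without the 20 animals, which were untreated, the differences in untreated animals were -1.54 for Igkc, -1.47 for Igha and -0.92 for Jchain. Within the upper range alone, Jchain in untreated animals (-0.75, adjusted p = 0.22) and Igkc and Igha in treated animals (-0.35, adjusted p = 0.64, and -0.48, adjusted p = 0.44) did not pass the edgeR test.

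Of 5 members tested by sex in untreated animals 4 were called, beside 65.2% of all genes, and of 6 in treated animals 4, beside 51%. Ighd, Cd79a, Cd79b and Cr2 failed the filter on low counts in untreated animals, and Cd79a, Cd79b and Cr2 in treated ones. Without that filter all 4 were called higher in females in untreated animals, by -0.99 for Ighd, -1.51 for Cd79a, -0.97 for Cd79b and -1.42 for Cr2 on the log2 scale, in a fit that called 11292 of 19088 genes. Of the 20 animals above the gap 16 were female. The male mean of log2(CPM + 0.1) was the higher one in 11 of 20 strains for Ighd, 8 for Cd79b, 5 for Cd79a and 4 for Cr2. Ighd in treated animals differed by 0.28 ± 0.21 (adjusted p = 0.26 by edgeR).

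The sex difference of Cxcl13 depended on which animals entered. Its medians were 0.281 CPM in untreated females, 0.362 in untreated males, 0.286 in treated females and 0.437 in treated males. In untreated animals the male-female difference was -0.10 ± 0.15 (edgeR, adjusted p = 0.58). Without the 20 animals it was 0.54 ± 0.09, higher in males (adjusted p = 1.0e-07), and within the upper range 0.76 ± 0.24 (adjusted p = 0.015). In treated animals it was 0.46 ± 0.18 (adjusted p = 0.026), but 0.19 ± 0.26 within the lower range alone (adjusted p = 0.60). A single female of (CC002/UncJ x CC075/UncJ)F1 on the 10% fat diet with metformin held the highest Cxcl13 level, 88.8 CPM, and the highest Igha level, 51.4 CPM. It had 0.837 CPM of Cd79a and was not among the 20.

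The marker lists are read against the 65.2% of all genes called by sex in untreated animals, 35.7% higher in females. Of 16 B-cell genes tested beside the members, 14 were called, all 14 higher in females, with a median of -0.42 against -0.02 over all genes. Siglecg, an inhibitory receptor of B cells, had -1.37 ± 0.18 and H2-DMb2, of antigen presentation, -1.24 ± 0.22, while Cd74 had -0.64 ± 0.08, Blnk -0.25 ± 0.05 and Ebf1 -0.08 ± 0.02. Syk (adjusted p = 0.13) and Lyn (adjusted p = 0.12), both kinases, were not called by edgeR. Of 18 B-cell receptor signalling genes 12 were called, a share near that of all genes, with 10 higher in females, and Malt1 (0.16 ± 0.04) and Bcl10 (0.05 ± 0.02) were higher in males. Cd81, Nfatc1 and Pik3cd were not called.

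Of 11 plasma cell genes 8 were called, 6 higher in females, beside the same 65.2% of all genes. Xbp1, the transcription factor of secretory cells, had -0.55 ± 0.02 and Txndc5 -0.34 ± 0.02, while Sdc1 had 0.15 ± 0.04. Creld2 and Edem2 were not called. Of 5 germinal centre genes 4 were called and 3 were higher in females: S1pr2 and Fas among them, with Gcsam at -0.52 ± 0.10. Bcl6 was higher in males, and Mybl1 was not called. Of 8 stromal genes beside the members 5 were called, a share below that of all genes, with Ccl21a (-0.44 ± 0.05), Pdpn and Vcam1 higher in females and Clu and Ltbr higher in males. Of the 2 high endothelial venule genes St3gal6 was called, higher in females, and Chst2 was not.

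Of 5 T-cell genes tested all 5 were called, 4 higher in females, such as Il7r at -1.15 ± 0.19 and Tcf7 at -0.46 ± 0.14, while Cd28 was higher in males at 0.69 ± 0.04. None of 10 macrophage genes, led by Lyz2, Mrc1, Csf1r, Cd163 and C1qa, and none of 6 blood genes, led by Hbb-bs, Hba-a2, Hba-a1, Hbb-bt and Alas2, were called by edgeR. All 8 adipocyte genes were called, 7 higher in females, among them Adrb3 at -1.56 ± 0.12, Retn at -1.18 ± 0.07, Cfd at -1.04 ± 0.07 and Car3 at -0.84 ± 0.02, with Adipoq, Plin1 and Cidec. The median adipocyte sum of the 4 female groups lay between 1714 and 1823 CPM and that of the 4 male groups between 866 and 1007 CPM. That sum was mostly Car3, with a mean of 1241 CPM over all animals against 41.5 CPM for Cfd, the next highest. It therefore follows Car3 and is no measure of adipocyte content. Of the fast muscle genes 8 of 10 were called, 7 higher in males. Of 9 liver genes, led by Alb, Trf, Ahsg, Apoa1 and Fgb, 2 were called, 1 in each direction, and both mitosis genes tested, Mki67 and Top2a, were higher in females. The 4 skin and gut lining genes were all called, with Krt8, Krt18 and Cdh1 higher in females and Krt10 in males. These list calls include the 20 animals high in Cd79a, 16 of them female, and are not given without them. The part of these cells in the sex differences of the members was not tested.

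In treated animals, where 51% of all genes were called by sex against 65.2% in the more numerous untreated ones, the lists gave the following. Of 17 B-cell genes 6 were called, all 6 higher in females, H2-DMb2 at -0.81 ± 0.21 among them. Of 19 signalling genes 11 were called, 10 of them higher in females. Of 11 plasma cell genes 4 were called, a share below that of all genes, with 3 higher in females. Of 6 T-cell genes 2 were called, 1 in each direction. Of 10 macrophage genes 3 were called and of 6 blood genes 3, all higher in females. Of 8 adipocyte genes 7 were called, all 7 higher in females. Adrb3 had -2.15 ± 0.16, Retn -1.28 ± 0.11 and Cfd -1.15 ± 0.09.

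All 5 members tested differed between strains in untreated animals by the edgeR test on all strain terms, where 93.2% of genes were called. The adjusted p was 1.9e-54 for Ighm, 4.6e-21 for Igkc, 1.9e-21 for Igha, 1.0e-13 for Jchain and 3.0e-21 for Cxcl13. In treated animals, where 85.9% of genes were called, the same 5 of 6 were called and Ighd was not (adjusted p = 0.13). Strain took 12.3% of the variance for Igkc, 12.5% for Igha, 7.75% for Jchain and 5.89% for Cxcl13, and between 2.16% and 2.82% for Ighd, Cd79a, Cd79b and Cr2.

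For Igkc the strain medians were highest in (CC030/GeniUncJ x CC002/UncJ)F1 at 1.51 CPM, (CC009/UncJ x CC013/GeniUncJ)F1 at 1.31 and (CC002/UncJ x CC043/GeniUncJ)F1 at 0.856. They were lowest in (CC001/UncJ x CC042/GeniUncJ)F1 at 0.179 CPM, (CC011/UncJ x CC005/TauUncJ)F1 at 0.165 and (CC004/TauUncJ x CC019/TauUncJ)F1 at 0.130. In the first of these strains 25 of 37 animals had at least 1 CPM of Igkc, and in the last 1 of 33. Of the 20 strains, 19 held an animal at or above 1 CPM. All 19 pairs of neighbouring strains overlapped in their middle 50% of animals, for Igkc and for each other member.

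**Figure D5:**
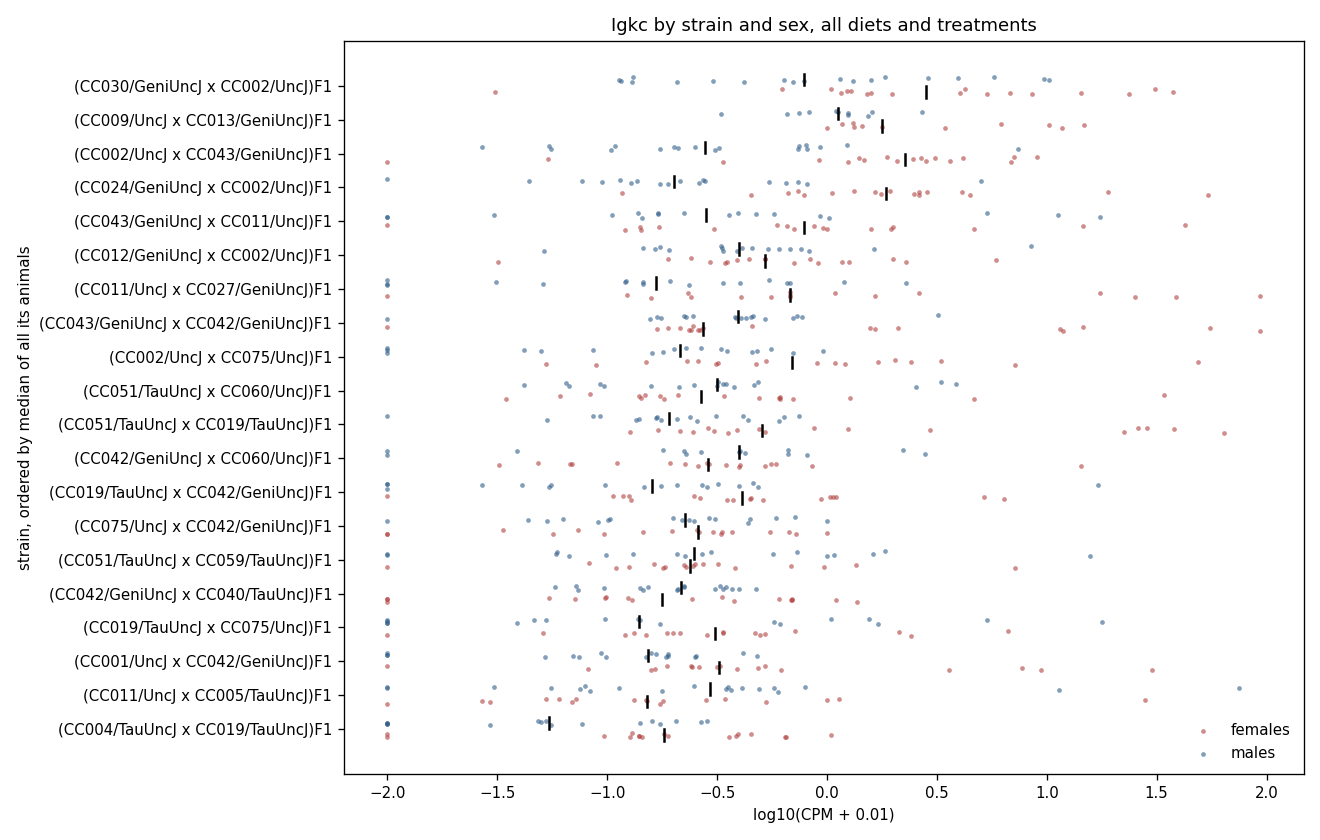
Igkc level as log10 of CPM plus 0.01 in each animal, by strain and labelled sex, with a black tick at the median of each sex and strains ordered by their median. Animals without counts lie at the left edge. Strain medians run from 0.130 to 1.51 CPM and most strains hold a few animals far to the right of their medians.

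The strain (CC009/UncJ x CC013/GeniUncJ)F1 had the highest medians of Igha, 0.344 CPM, and Jchain, 0.776 CPM. All its libraries were in the upper range, where 17.4% of untreated animals reached 1 CPM of Jchain against 9.75% in the lower range, so for its rank, that of Igkc included, strain and range cannot be told apart. The next for Igha were (CC043/GeniUncJ x CC042/GeniUncJ)F1 at 0.316 CPM and (CC012/GeniUncJ x CC002/UncJ)F1 at 0.275, and for Jchain (CC030/GeniUncJ x CC002/UncJ)F1 at 0.735 CPM and (CC002/UncJ x CC043/GeniUncJ)F1 at 0.470. Igha was lowest in (CC011/UncJ x CC027/GeniUncJ)F1, with a median of 0 and a highest value of 0.332 CPM, then (CC004/TauUncJ x CC019/TauUncJ)F1 at 0.0568 CPM and (CC019/TauUncJ x CC075/UncJ)F1 at 0.0622. That first strain held 4 of the 20 animals with high Cd79a. Jchain was lowest in (CC042/GeniUncJ x CC040/TauUncJ)F1 at 0.189 CPM, (CC075/UncJ x CC042/GeniUncJ)F1 at 0.196 and (CC051/TauUncJ x CC060/UncJ)F1 at 0.197.

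Cxcl13 medians ran from 0.196 CPM in (CC004/TauUncJ x CC019/TauUncJ)F1, 0.207 in (CC051/TauUncJ x CC059/TauUncJ)F1 and 0.226 in (CC011/UncJ x CC027/GeniUncJ)F1 to 0.519 in (CC019/TauUncJ x CC042/GeniUncJ)F1, 0.525 in (CC030/GeniUncJ x CC002/UncJ)F1 and 0.566 in (CC043/GeniUncJ x CC042/GeniUncJ)F1.

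Igkc and Jchain were carried largely together. Of the 87 animals at or above 1 CPM of Jchain, 85 also reached it for Igkc (97.7% of Jchain's and 52.5% of Igkc's animals). Of the 65 for Igha, 59 reached it for Igkc (90.8% and 36.4%). The highest Igkc level, 93.6 CPM, was in an untreated female of (CC043/GeniUncJ x CC042/GeniUncJ)F1 on the 44% fat diet, with 12.2 CPM of Igha and 0.814 of Cd79a. Over all animals, by r after removing the same terms, the genes most like Cd79a, Ighd, Cd79b and Cr2 were led by Cd22, an inhibitory receptor of B cells, with r of 0.82, 0.80, 0.77 and 0.77. Within the 683 animals the values were 0.49, 0.43, 0.38 and 0.32. Other genes among the most alike were Ltb for Cd79a, Ltb and Ms4a4b for Ighd, Lck for Cd79b, and Bcl11a and Cxcr5 for Cr2. Among genes that are not immunoglobulins, Igkc was most like Lck (0.64), Ptprc and Coro1a, Jchain most like Lck (0.60), Ms4a4b and Coro1a, Igha most like H2-Eb1 (0.48), Cd74 and H2-Ab1, and Cxcl13 most like Ptprc (0.66), Lcp1 and Cd4. The sum of the members was most like Coro1a (0.50), Pik3cd and Vasp. The table held 2 further immunoglobulin rows, Ighg2b and Ighg2c, which were more like Igkc (0.75 and 0.67), Jchain (0.72 and 0.63) and Igha (0.56 and 0.50) than any of these.

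Diet in untreated animals was among the contrasts that picked the members and is described only. Igkc reached 1 CPM in 33 animals on the 10% fat (14.1%) and 58 of 235 on the 44% fat diet, Jchain in 17 and 34, and Igha in 11 and 24. The log2 difference of 44% minus 10% fat was 1.24 ± 0.24 (SE) for Igkc, 0.91 ± 0.17 for Jchain, 0.65 ± 0.18 for Igha, -0.28 ± 0.09 for Ighm and -0.18 ± 0.14 for Cxcl13. Of all genes tested 18.4% were called in this contrast.

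Diet in metformin-treated animals had not been used to pick the members. Igkc reached 1 CPM in 33 animals on the 10% fat (28.4%) and 38 on the 44% fat diet (32.2%), Jchain in 17 and 19, and Igha in 15 and 15. None of the 6 members tested was called by edgeR, where 10.5% of all genes were, and 3 had an unadjusted p under 0.05. The difference was -0.51 ± 0.18 for Cxcl13 (adjusted p = 0.056), -0.63 ± 0.27 for Igha (adjusted p = 0.13), -0.25 ± 0.11 for Ighm (adjusted p = 0.14), -0.11 ± 0.20 for Ighd, -0.11 ± 0.21 for Jchain and 0.01 ± 0.26 for Igkc. DESeq2 (adjusted p = 0.036) and limma on log2 CPM (adjusted p = 0.046) each called Cxcl13, as did the edgeR fit within the lower range alone, at -0.95 ± 0.27 (adjusted p = 0.023). Whether the diet differences of treated and untreated animals themselves differed was not tested.

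The diet difference in untreated animals is split by sex here as description too, since that contrast picked the members. The difference of males minus that of females was -0.77 ± 0.36 for Igha, -0.47 ± 0.34 for Jchain, -0.28 ± 0.17 for Ighm, 0.31 ± 0.48 for Igkc and 0.31 ± 0.29 for Cxcl13. Without the 20 animals it was -1.24 ± 0.27 for Jchain and -1.17 ± 0.38 for Igkc. Of all genes 0.226% were called for this term.

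Metformin was likewise among the contrasts that picked the members, and age cannot be told apart from it. The log2 difference of treated minus untreated animals was -1.35 ± 0.25 for Cr2, -1.25 ± 0.28 for Cd79a, -1.17 ± 0.24 for Ighd and -0.83 ± 0.22 for Cd79b. It was 0.91 ± 0.18 for Igha, 0.47 ± 0.22 for Igkc, 0.34 ± 0.15 for Jchain, 0.13 ± 0.08 for Ighm and -0.02 ± 0.14 for Cxcl13. Of all genes tested 16.2% were called.

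The direction for the receptor genes rested on the 20 untreated animals. Without them the difference was 0.27 ± 0.17 for Cd79a, 0.29 ± 0.13 for Ighd and 0.35 ± 0.14 for Cd79b, Cr2 failed the filter on low counts, and Igkc had 1.12 ± 0.17. The identifier ranges differed too. In the lower range the difference was -1.83 ± 0.34 for Cd79a, 1.12 ± 0.21 for Igha and 0.55 ± 0.26 for Igkc, and in the upper range 0.17 ± 0.40, 0.01 ± 0.33 and 0.10 ± 0.36. Igkc reached 1 CPM in 68 of 400 untreated and 43 of 144 treated animals (29.9%) of the lower range, and in 23 of 69 (33.3%) and 28 of 90 (31.1%) of the upper range.

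The metformin difference split by sex is likewise a description, as the members were picked for their metformin differences in the same animals. The difference of males minus that of females was 1.45 ± 0.40 for Igkc, 1.47 ± 0.44 for Ighd and 1.41 ± 0.39 for Cd79b, and lay between 0.29 and 1.23 for the other 6 members. Without the 20 animals it was 1.16 ± 0.33 for Igkc, 0.03 ± 0.25 for Ighd and 0.35 ± 0.27 for Cd79b. Within the lower range alone it was 1.41 ± 0.50 for Igkc, 1.60 ± 0.59 for Ighd and 1.67 ± 0.52 for Cd79b, and within the upper range 1.55 ± 0.69, 0.55 ± 0.50 and 0.18 ± 0.58. Of all genes 1.87% were called for this term. Of 20 B-cell genes beside the members 1 was called by edgeR, Siglecg at 1.01 ± 0.30 (adjusted p = 0.0497), and of 4 skin and gut lining genes Krt8 was, at 1.03 ± 0.30.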

How the data were processed

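RNA was sequenced from gastrocnemius muscle of animals of 20 strains. The authors ran GBRS, which places reads on the transcripts of all 8 founder genomes at once, without using the pairing of mates, so that each mate adds to a gene separately. They deposited the expected count of each gene from EMASE, here as whole numbers. The deposited table keeps genes with a count in at least 50.07% of libraries. The authors also deposited variance-stabilised values from DESeq2, used only as an alternative because the unit allows no count model. The processing notes name the build GRCm38.

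Counts were fitted with edgeR 4.0.16 (R 4.3.3): TMM scaling, edgeR's filter on low counts, a quasi-likelihood fit with strain, sex, diet, identifier range and, over all animals, treatment. P-values were adjusted by the Benjamini-Hochberg method over all genes tested and called under 0.05. SE is the log2 change divided by the root of its F. CPM is scaled to the library total, and log values use a pseudocount of 0.1 CPM. The edgeR and limma steps were run on simulated counts with a sex effect and the same spread for every gene. That run did not cover strain, diet or interaction effects, or genes carried by few animals. Alternatives used limma 3.58.1, DESeq2 1.42.0, other scaling and filters, each identifier range alone, and libraries left out. Leaving out the 20 animals at or above 1 CPM of Cd79a was chosen after seeing the data, as was the permutation test of their sexes.

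The interactions of diet and of metformin with sex were planned as tests and are given as description for the members, which were picked on those contrasts. The members and marker lists were chosen with earlier results of these data known. The text names all 9 members, the 5 genes of each list with the highest mean CPM, called list genes changed by over 1 on the log2 scale in a tested contrast, the 3 genes most like each member, and the 3 highest and 3 lowest strains. Others were named after their values were seen. Some genes that this rule names are not reported here. P-values rest on the spread between animals, 1 library each. Of 1404 pairs of libraries in the same strain and group, 0 were identical.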

Additional observations from a re-analysis of the deposited data

Results flagged for a closer look

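For 3 members the difference between metformin-treated and untreated animals passed edgeR's threshold for an interaction with sex over all animals. Since metformin differences in these animals picked the members, the values are a description and no independent support. The difference was higher in males than in females by 1.45 on the log2 scale for Igkc, 1.47 for Ighd and 1.41 for Cd79b. None of the 9 members passed within the lower range alone, within the upper range alone or by limma on log2 CPM, where 6, 2 and 1 had an unadjusted p under 0.05. Without the 20 untreated animals high in Cd79a, 16 of which were female, the values were 1.16 for Igkc, 0.03 for Ighd and 0.35 for Cd79b.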

How the results depend on the processing

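No paired analysis was possible because every label gives the same replicate number. Of 376 comparisons of a member's test with an alternative, 337 kept their side of the threshold, 23 lost the call and 14 gained it. Another 2 reversed, both for Cxcl13 by sex in untreated animals, at 0.76 in the upper range alone and 0.54 without the 20 animals. A change of direction was counted only where either fit called the member, and strain tests have no direction.

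The counts for the interactions below are descriptions. Of members called by sex in untreated animals (4), 8 were called with no filter. By sex in treated animals (4), 2 were called in the upper range. By strain in untreated animals (5), 9 were called with no filter and 2 in the upper range. By diet in treated animals (0), limma on log2 CPM, DESeq2, the lower range and leaving out the 7 libraries highest in the members called 1 each. By diet and sex together (0), 1 was called without the 20 animals. By metformin and sex together (3), 0 were called by limma on log2 CPM, 0 in the lower and 0 in the upper range, 1 without the 20 animals, and 6 each without the 7 highest libraries and without those against their labels. The members' median diet difference in untreated animals, 0.65, was 0.21 by limma on log2 CPM and 0.33 in the upper range. Their median metformin difference, -0.02, was 0.44 without the 20 animals. Animals carrying Cd79a were 20 at 1 CPM, 401 at 1 count, 12 at 10 CPM and 0 at 100 CPM. The median r among Ighd, Cd79a, Cd79b and Cr2, 0.79, was 0.97 with a pseudocount of 1 and 0.34 by rank. The cause of these changes was not tested, beyond fewer or other animals and genes entering.

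Over all genes, calls by sex were 10687 in untreated animals (4019 in the upper range) and 8374 in treated ones (5332). By strain in untreated animals they were 15263 (8601). By diet in treated animals they were 1732 (532 in the lower and 686 in the upper range) and in untreated ones 3009 (299 in the upper range). By metformin they were 2877 (1 in the upper range). For the diet and sex term they were 37 (14 in the lower, 0 in the upper range), and for metformin and sex 331 (152 and 0, and 217 by limma on log2 CPM). Near 1 CPM, levels rest on 27.4 to 96.1 counts.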
